A study of Rattus norvegicus with 2 samples.

Results

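The miRNAs described here are commonly used as marks of red blood cells and of the vessel wall, and were measured in the hippocampus of rats after status epilepticus (SE, a seizure that does not stop by itself). They were chosen by name alone, as every entry of the count table for miR-451, miR-144 and miR-486 (erythrocyte), miR-126 (endothelium), and miR-143 and miR-145 (smooth muscle and pericyte, the contractile cells around vessels). This gave 7 of the 390 miRNAs of the table, 3 of the erythrocyte and 4 of smooth muscle and pericyte. Of the 390, 328 were known miRNAs and 62 were predicted ones, and both kinds enter the shares and ranks over all miRNAs given below. MiR-126 and miR-486 were not analysed here, so that the endothelial source had 0 entries, and the sources compared were the erythrocyte and smooth muscle and pericyte.

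The Experimental group consisted of Wistar rats with an electrode in the right amygdala, in which SE was induced by electrical stimulation of the lateral amygdala for 20 min. According to the paper, stimulation was resumed in animals that had not reached SE by then. The Control group had the same surgery and no current. According to the labels, the animals of both groups were 5 months old. Left hippocampi were taken 24 hours after SE, and RNA of each group was pooled into 1 small RNA library. The methods give 6 rats per group, but not how many entered a pool. The rats were perfused through the heart with cold saline before dissection, a step meant to wash blood out of the vessels. How complete this was in either pool was not measured in the counts.

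MiR-451 and miR-144 come from hairpins of 1 short cluster. They are made in large amounts while red cell precursors mature, and stay in the circulating cells, which have no nucleus. MiR-451 is an unusual miRNA, because its precursor is cut by Argonaute 2 rather than by Dicer. MiR-143 and miR-145 also share a cluster, and are known for keeping smooth muscle cells of vessel walls in their contractile state.

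All 7 names matched mature sequences of RefSeq (build GRCr8, used for names, sequences and positions of these genes only). The 7 sequences are shown because they are the counted molecules, with the seed (bases 2 to 8, which pair with targets) in capitals.
rno-miR-451-5p: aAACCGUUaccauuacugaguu
rno-miR-144-5p: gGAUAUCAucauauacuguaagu
rno-miR-144-3p: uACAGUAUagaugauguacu
rno-miR-143-3p: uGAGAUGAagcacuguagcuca
rno-miR-143-5p: gGUGCAGUgcugcaucucugg
rno-miR-145-5p: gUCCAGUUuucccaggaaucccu
rno-miR-145-3p: gGAUUCCUggaaauacuguuc
No seed was shared between members or with another of the mature rat miRNAs in the RefSeq table. MiR-144-3p shared the first 6 bases of its seed with miR-101a-3p and miR-101b-3p, both of which are in the count table. The whole sequence of each member was at least 6 edits (substitutions, insertions or deletions) away from that of any other mature rat miRNA in the RefSeq table. The closest pair was miR-145-3p and miR-23b-5p.

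The 4 hairpins are shown with the counted arms in capitals, since hairpins of a cluster and arms of a hairpin are compared further on.
Mir144: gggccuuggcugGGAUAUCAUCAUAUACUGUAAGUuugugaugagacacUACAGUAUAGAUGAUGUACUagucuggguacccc
Mir451a: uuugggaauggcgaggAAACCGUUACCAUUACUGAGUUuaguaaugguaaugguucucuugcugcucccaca
Mir143: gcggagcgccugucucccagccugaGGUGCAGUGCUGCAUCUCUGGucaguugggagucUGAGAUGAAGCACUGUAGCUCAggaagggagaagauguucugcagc
Mir145: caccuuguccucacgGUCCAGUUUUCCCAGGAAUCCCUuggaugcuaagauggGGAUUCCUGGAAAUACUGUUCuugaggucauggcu
Mir144 lies at chr10:63459397-63459479 and Mir451a at chr10:63459569-63459640, both on the plus strand of GRCr8 with 89 bases between them. Mir143 lies at chr18:57371349-57371453 and Mir145 at chr18:57369983-57370070, both on the minus strand with 1278 bases between them. Both fall inside the bounds of Carmn, the gene of a long non-coding RNA also called Mir143hg. The Mir451a hairpin, of 72 bases, was the shortest of the 4, and the Mir143 hairpin, of 105 bases, was the longest.

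The deposited values are whole-number read counts, which summed to 5678090 in the Experimental and 6703056 in the Control library. They were scaled to counts per 1000000 clean reads (CPM), with the clean reads of each library as stated by the study. Ranges given as CI are exact 95% intervals and cover counting error only. Since each group has 1 library, no difference has a replicate check, and a test of reads compares these 2 libraries and not the conditions. In pooled tissue, more cells of a type and more of a miRNA per cell cannot be told apart. Other scalings lower every log2 ratio by the same amount, 0.18 with edgeR's TMM normalization and 0.27 with unscaled counts. They are given beside most values whose sign or call they turn.

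Among the erythrocyte miRNAs, rno-miR-451-5p was higher after SE. It had 196 counts in the Experimental library against 100 in the Control library. These were 27.1 CPM (CI 23.4 to 31.1) and 11.4 CPM (CI 9.31 to 13.9), so that the intervals did not overlap. The level after SE was 2.36-fold that of the control (CI 1.85 to 3.04), which is 1.24 on the log2 scale (CI 0.89 to 1.60, and 0.62 to 1.33 with unscaled counts). Of the 285 miRNAs with at least 30 counts in either library, it ranked 19 by log2 ratio, counted from the highest.

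The neighbouring hairpin gave far fewer reads. Its 5p arm, rno-miR-144-5p, had 16 counts after SE against 5 in the control, or 2.21 and 0.572 CPM. The log2 ratio was 1.95, with a wide interval that lay above 0 (CI 0.43 to 3.75). Its 3p arm, rno-miR-144-3p, had 12 counts against 14, or 1.66 and 1.60 CPM. The log2 ratio was 0.05 (CI -1.19 to 1.27), or -0.13 with TMM and -0.22 with unscaled counts, and no difference was detectable at this depth. Both arms were among the scarce miRNAs of the table, at ranks 336 and 324 of 390 by level, whereas miR-451-5p was at rank 173.

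Of the miRNAs of smooth muscle and pericyte, the more abundant arms of miR-143 and miR-145 were close to level between the libraries. Their minor arms had few counts and wide intervals. The most abundant of the 7, at rank 76 of 390, was rno-miR-143-3p, with 1215 counts after SE against 1291 in the control. These were 168 CPM (CI 158 to 177) and 148 CPM (CI 140 to 156), and the log2 ratio was 0.18 (CI 0.07 to 0.30). Its direction is not certain, because the ratio was 0.0037 with TMM (CI -0.11 to 0.12) and -0.088 with unscaled counts (CI -0.20 to 0.027).

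Its cluster partner, rno-miR-145-5p, stood at 19.9 CPM after SE (CI 16.8 to 23.4) and 16.9 CPM in the control (CI 14.3 to 19.9), intervals that overlapped. The log2 ratio was 0.23 (CI -0.11 to 0.57), and -0.040 with unscaled counts, so that no difference was detectable. The minor arm rno-miR-143-5p had 29 counts against 19, or 4.0 and 2.17 CPM, and a log2 ratio of 0.88 whose interval just held 0 (CI -0.0030 to 1.80). The minor arm rno-miR-145-3p had 16 counts against 24, or 2.21 and 2.75 CPM, and a log2 ratio of -0.31 (CI -1.32 to 0.66). It alone of the 7 had the lower level after SE with the clean reads as totals, by less than its counting error.

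**Figure D1:**
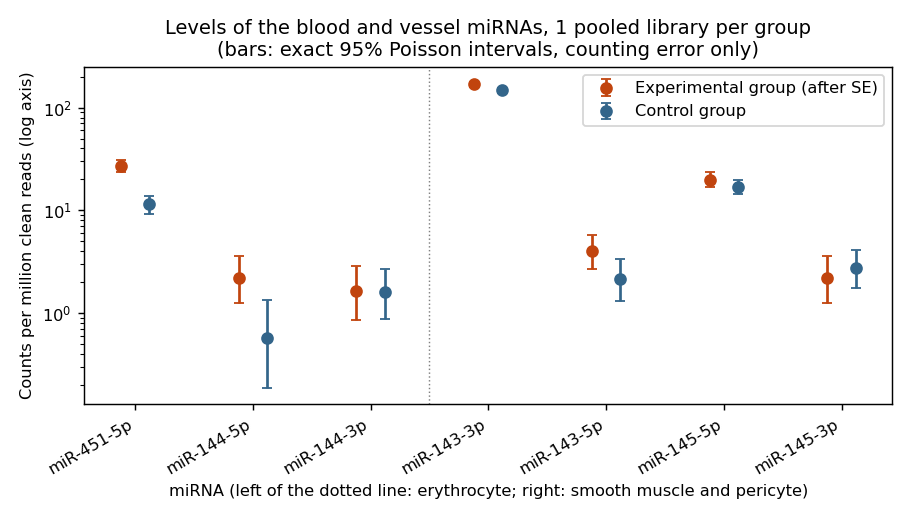
Counts per 1000000 clean reads (log axis) of the 7 miRNAs in the Experimental and Control libraries, with exact 95% Poisson intervals of counting error and 1 pooled library per group. The intervals of miR-451-5p (27.1 and 11.4 CPM) stand apart. Those of miR-143-3p (168 and 148 CPM) lie close together without overlap. Those of miR-144-5p, miR-144-3p, miR-143-5p, miR-145-5p and miR-145-3p overlap, miR-144-5p only narrowly.

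Of the 7 members, 3 had at least 30 counts in either library (miR-451-5p, miR-143-3p and miR-145-5p), and all of these had at least 30 in both. MiR-143-5p, with 29 counts after SE, was just under this minimum. A log2 ratio above 1 was reached by 1 of these 3 members, miR-451-5p, against 10.2% of all 285 miRNAs with this minimum (7.02% with TMM). With unscaled counts miR-451-5p stood at 0.97, just under this threshold, which 5.61% of the 285 then passed. A ratio below -1 was reached by 0 of the 3, against 2.11%. Among them miR-451-5p and miR-143-3p had intervals above 0, against 40.4% of the 285, and 0 had an interval below 0, against 22.8%. With TMM or unscaled counts miR-451-5p alone of the 3 had an interval above 0, against 28.4% and 23.2%, while 35.1% and 41.1% of the 285 then had one below 0.

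Without a minimum, 2 of the 7 members (miR-451-5p and miR-144-5p) had a log2 ratio above 1, against 13.6% of all 390 miRNAs, and 0 had one below -1, against 6.41%. An interval above 0 was found for 3 of the 7 (miR-451-5p, miR-144-5p and miR-143-3p), against 35.4% of all miRNAs, and an interval below 0 for 0, against 19.7%. The members' share with an interval above 0 was thus near that of the whole table. The median log2 ratio of the 285 miRNAs was 0.10, and it lay inside the intervals of miR-143-3p and miR-145-5p and below that of miR-451-5p.

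Summed over its 3 miRNAs, the erythrocyte source had 224 counts after SE against 119 in the control. This is 30.9 CPM (CI 27.0 to 35.3) against 13.6 CPM (CI 11.3 to 16.3), or 1.18 on the log2 scale (CI 0.86 to 1.52). With unscaled counts the log2 ratio was 0.91 (CI 0.59 to 1.25), just under 1. MiR-451-5p made up 87.5% of this sum after SE and 84.0% in the control. Without it, the arms of miR-144 together had 28 counts against 19, and their log2 ratio of 0.83 had an interval that reached just below 0 (CI -0.06 to 1.75).

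The smooth muscle and pericyte source had 1404 counts against 1482 over its 4 miRNAs, or 194 CPM (CI 184 to 204) and 170 CPM (CI 161 to 178). The log2 ratio was 0.19 (CI 0.086 to 0.30). It came to 0.013 with TMM (CI -0.093 to 0.12) and -0.078 with unscaled counts (CI -0.18 to 0.028), so that it has no certain direction. MiR-143-3p made up 86.5% of the sum after SE and 87.1% in the control. Without it the log2 ratio was 0.26 (CI -0.04 to 0.55).

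The comparison of the sources with each other does not depend on how the libraries are scaled. For each erythrocyte count there were 6.27 counts of smooth muscle and pericyte after SE and 12.5 in the control. The erythrocyte miRNAs were thus higher relative to those of smooth muscle and pericyte in the Experimental library, with an odds ratio of 1.99 (CI 1.56 to 2.53). A two-sided Fisher's exact test of the reads gave p = 4.68e-09 for this pair of sources, the only one that could be compared. Without the most abundant miRNA of each source, miR-451-5p and miR-143-3p, the odds ratio was 1.49 with an interval that held 1 (CI 0.77 to 2.92), and Fisher's exact test gave p = 0.219. At the depth of the other 5 miRNAs the difference between the sources was not detectable.

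**Figure D2:**
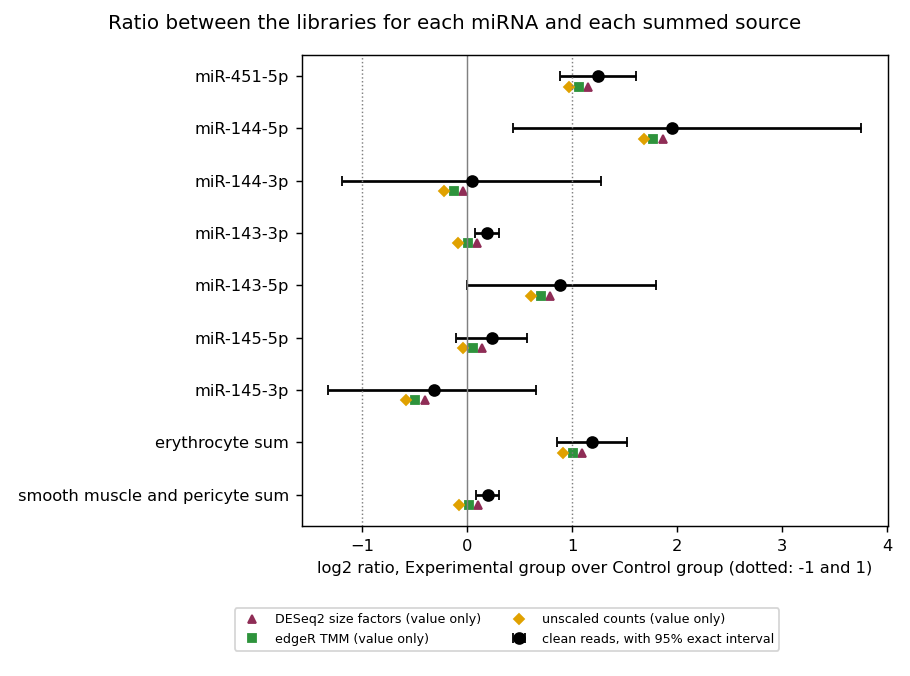
Log2 ratio of the Experimental over the Control library for the 7 miRNAs and the 2 summed sources, with exact 95% intervals (black, clean reads as totals) and the values under 3 other scalings (coloured). MiR-451-5p and the erythrocyte sum, at 1.24 and 1.18, lie to the right of miR-143-3p, miR-145-5p and the smooth muscle and pericyte sum, which lie around 0 and fall below it with unscaled counts.

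Hairpins of 1 cluster were compared within each library, a comparison added after the counts had been seen. For each count of miR-144, with both arms summed, there were 7 counts of miR-451 after SE and 5.26 in the control. The odds ratio was 1.33 (CI 0.67 to 2.60), and Fisher's exact test gave an adjusted p = 0.822 over the 2 clusters. Against the 3p arm of miR-144 alone it was 2.28 (CI 0.94 to 5.62). For each count of miR-145 there were 7.78 counts of miR-143 after SE and 7.62 in the control. Here the odds ratio was 1.02 (CI 0.81 to 1.29) with an adjusted p = 0.861 by Fisher's exact test. The interval of the miR-143 and miR-145 pair was narrow, while that of the miR-451 and miR-144 pair held a difference of more than 2-fold.

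The arms of a hairpin are cut from the same precursor, and usually 1 of them is kept. For miR-143 the 3p arm dominated. It took 97.7% of the counts of the hairpin after SE (CI 96.7 to 98.4, Clopper-Pearson as for all shares) against 98.5% in the control (CI 97.7 to 99.1). For miR-145 the 5p arm dominated, with 90.0% after SE (CI 84.3 to 94.2) against 86.0% (CI 80.0 to 90.9). MiR-144 had no such dominant arm, the 5p arm taking 57.1% after SE (CI 37.2 to 75.5) against 26.3% (CI 9.15 to 51.2). Of miR-451 the 5p arm alone was analysed here.

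In none of the 3 hairpins did the arms differ between the libraries by the test. The odds ratio of the 5p over the 3p arm was 3.63 for miR-144 (CI 0.91 to 16.7), with p = 0.0716 by Fisher's exact test and an adjusted p = 0.165 over the 3 hairpins. It was 1.62 for miR-143 (CI 0.87 to 3.08), with an adjusted p = 0.165 by Fisher's exact test. For miR-145 it was 1.46 (CI 0.71 to 3.07), with an adjusted p = 0.313 by Fisher's exact test.

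**Figure D3:**
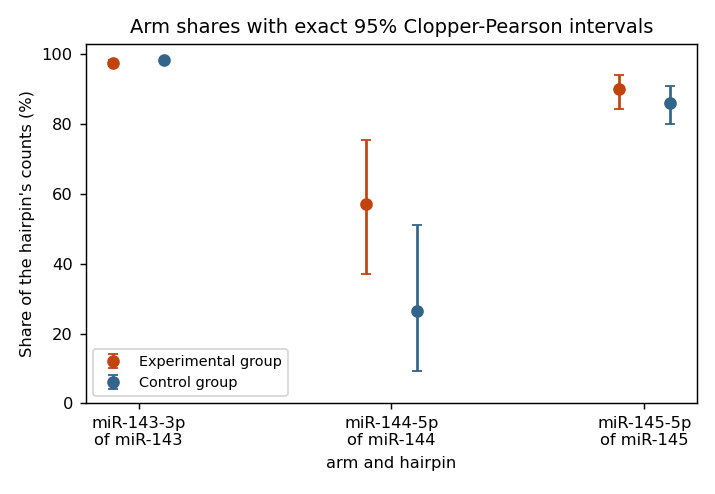
Share (%) of the counts of each hairpin taken by the named arm in the Experimental and Control libraries, with exact 95% Clopper-Pearson intervals. The arm shares of miR-143 and miR-145 lie close together in the libraries, and the wide intervals of miR-144 (57.1% and 26.3%) overlap.

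Other miRNAs of blood and vessels were set beside the members. Of 6 other miRNAs abundant in erythroid cells, both arms of miR-25 among them, 4 had intervals above 0 and 0 below with the clean reads. Of the 285 miRNAs with at least 30 counts, 40.4% had one above 0 and 22.8% below. The median log2 ratio of the 6 was 0.42, against 1.24 for miR-451-5p and 0.10 for the 285. With TMM 4 were above and 1 was below, against 28.4% and 35.1% of the 285. With unscaled counts 2 were above and 2 below, against 23.2% and 41.1%. A log2 ratio of 1 was passed by 0 of the 6 under any scaling, against 10.2% of the 285 with the clean reads. The 6 are also made by many other cells. MiR-185-5p, the most abundant of them, stood at 0.22 (-0.049 with unscaled counts), miR-25-3p at -0.00050 (-0.18 with TMM) and miR-16-5p at 0.62 (CI 0.48 to 0.76). The intervals of these 3 lay below that of miR-451-5p. Those of miR-92a-3p, the highest of the 6 at 0.84 (CI 0.58 to 1.10), and miR-93-5p, at 0.64 (CI 0.23 to 1.04), overlapped it.

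For the endothelium, 5 other miRNAs linked to it were listed, both arms of miR-221 among them, in the absence of miR-126 here. MiR-424 was looked for too and had no entry under this name, and counterparts under other names were not searched. All 5 had intervals above 0 with the clean reads, against 40.4% of the 285 miRNAs, at a median log2 ratio of 0.38. With TMM 2 were above and 0 below, against 28.4% and 35.1% of the 285. With unscaled counts 2 were above and 1 (miR-221-5p, -0.12) was below, against 23.2% and 41.1%. A log2 ratio of 1 was passed by 0 of the 5 under any scaling, against 10.2% of the 285 with the clean reads. With 8874 counts against 5574, miR-222-3p had the highest log2 ratio among them, 0.94 (CI 0.89 to 0.99), and miR-221-3p stood at 0.38. The interval of miR-222-3p overlapped the lower end of that of miR-451-5p. MiR-221 and miR-222 are also found in smooth muscle and other cells, so they do not stand for the endothelium alone.

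Of 4 other miRNAs of muscle and mesenchyme, 2 reached 30 counts, and both had intervals below 0 under every scaling. Of the 285 miRNAs, 22.8% had one below 0 with the clean reads, 35.1% with TMM and 41.1% with unscaled counts. MiR-1-3p, best known from heart and skeletal muscle, stood at -0.23 (CI -0.35 to -0.11), and miR-199a-3p at -0.29 (CI -0.40 to -0.17). Both intervals lay below that of miR-143-3p, an order that no scaling changes. MiR-133a-3p had 8 counts against 21 and a log2 ratio of -1.12 whose interval held 0 with the clean reads (CI -2.51 to 0.11) but not with TMM (CI -2.69 to -0.068) or unscaled counts (CI -2.78 to -0.16). MiR-133b-3p, with 2 counts against 9, was too scarce for a difference to be detectable with the clean reads.

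Leukocyte miRNAs, commonly used as marks of white blood cells, were listed with 3 entries only, and these did not move together. By log2 ratio miR-150-3p stood above miR-451-5p, and miR-142-5p and miR-150-5p stood below it. MiR-155 and miR-223 were looked for too and had no entry under these names. Whether the reads of the 3 entries came from blood or from other cells of the tissue was not tested. MiR-142-5p, typical of blood-forming cells, had 212 counts against 249 and a log2 ratio of 0.04 (CI -0.23 to 0.31), wholly below the interval of miR-451-5p. The ratio of miR-142-5p was -0.14 with TMM and -0.23 with unscaled counts. The arms of miR-150, a miRNA of lymphocytes, stood apart, at 1.91 for miR-150-3p (59 counts against 19, CI 1.14 to 2.73) and -0.48 for miR-150-5p (48 against 81, CI -1.03 to 0.05). With TMM the interval of miR-150-5p lay below 0 (CI -1.21 to -0.13), as it did with unscaled counts (CI -1.30 to -0.22).

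**Figure D4:**
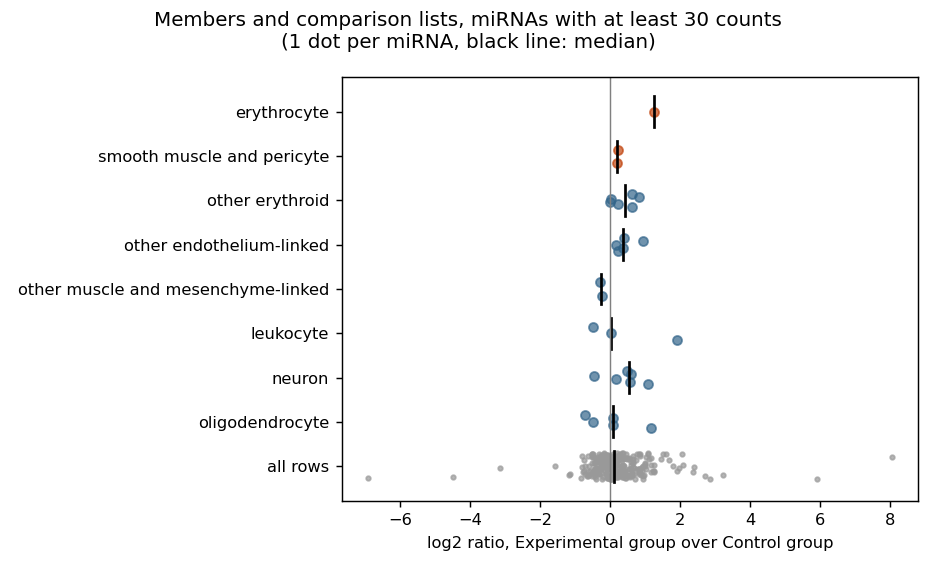
Log2 ratio of the Experimental over the Control library for each miRNA with at least 30 counts, by list, with the median as a black line and all 285 miRNAs at the bottom. The single erythrocyte miRNA (miR-451-5p, 1.24) lies above every other erythroid and endothelium-linked miRNA shown. Leukocyte miR-150-3p (1.91) lies above it, and oligodendrocyte miR-219-1-3p (1.17) and neuron miR-124-3p (1.09) lie close below it. Both smooth muscle and pericyte miRNAs (0.18 and 0.23) lie near the median of all miRNAs, 0.10.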

How the data were processed

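The values deposited by the authors are read counts per miRNA in whole numbers, from 1 pooled library per group and not scaled, although the file header calls them normalized. Low-quality, short and single-read sequences had been discarded. The labels list the rn5 genome build, and the aligner, counter and miRBase release are not given in the sources used here. The p-values in the authors' table were not used.

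Counts were divided by the clean reads stated by the study. Log2 ratios have exact Clopper-Pearson intervals, taken from the Experimental library's share of the reads of each miRNA, and levels have exact Poisson intervals. Counts under 3 were raised to 3 in ratios, which touched no member. The call was at least 30 counts in either library and a log2 ratio beyond 1, and an interval without 0 was a looser call. Sources, arms and clusters were compared by two-sided Fisher's exact tests with Benjamini-Hochberg adjustment within each kind. The intervals cover counting error only, and they and Fisher's exact tests treat each read as independent. PCR copies are not independent molecules, so intervals and p-values can understate even this error.

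The members, lists and tests were chosen with earlier results of these data known. Every member was named, and of each comparison list at most the 3 most abundant and any past the call. MiR-133b-3p, miR-92a-3p and miR-93-5p were named in addition, after their values were seen. Alternatives were the table's sums, reads similar to known miRNAs, edgeR's TMM, DESeq2's size factors, unscaled counts, a pseudocount of 1, other minimums and thresholds, and leaving out the most abundant miRNA of a source. The intervals were tested on simulated data. Python 3.11.15, scipy 1.17.1, R 4.3.3, edgeR 4.0.16 and DESeq2 1.42.0 were used.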

Additional observations from a re-analysis of the deposited data

How the results depend on the processing

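No paired analysis was possible because neither group has more than 1 library, and no replicate could be left out. The log2 ratios shift alike, by -0.18 with TMM, -0.090 with DESeq2's size factors and -0.27 with unscaled counts. Unscaled, miR-451-5p came to 0.97 and the erythrocyte sum to 0.91, under the log2 ratio of 1, with intervals above 0 (0.62 to 1.33 and 0.59 to 1.25). Also unscaled, the sign turned for miR-143-3p (-0.088), miR-145-5p (-0.040) and the smooth muscle and pericyte sum (-0.078). For miR-144-3p it turned with TMM (-0.13), DESeq2's size factors (-0.042) and unscaled counts (-0.22). Without miR-451-5p the erythrocyte sum had a log2 ratio of 0.83, and without the most abundant miRNA of each source the odds ratio of the sources was 1.49. With the most abundant arm of each hairpin alone, added after the data were seen, the odds ratio of miR-143 over miR-145 was 0.97 (interval 0.75 to 1.24), and that of miR-451 over miR-144 moved from 1.33 to 2.28 (interval 0.94 to 5.62; Fisher's exact test, p = 0.0532, adjusted p = 0.106). The median of the leukocyte list turned to -0.14 with TMM, -0.052 with size factors and -0.23 unscaled, and that of the oligodendrocyte list to -0.11, -0.021 and -0.20 in this order, and to -0.21 with at least 100 counts. Of all miRNAs, 29 were higher and 6 lower by the call. These counts were 16 and 12 unscaled, 47 and 21 with at least 10 counts, 18 and 2 with at least 100, 53 and 25 with no minimum, and 9 and 3 with a log2 ratio beyond 2. Depth limits the 4 members with under 30 counts.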

Other observations

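Markers of brain cells show how the ratios of miRNAs commonly ascribed to a cell type spread in the same libraries. Of the 285 miRNAs with at least 30 counts, 40.4% had an interval above 0 and 22.8% below. These shares were 28.4% and 35.1% with TMM, and 23.2% and 41.1% with unscaled counts. Of 6 neuron miRNAs, 3 had intervals above 0 (2 with TMM or unscaled counts) and 1 below, with miR-124-3p at a log2 ratio of 1.09 (50380 counts after SE against 28500, and 0.91 with TMM) and miR-128-3p at -0.45 (214423 against 354286). Of 5 oligodendrocyte miRNAs, 2 had intervals above 0 (1 with TMM) and 2 below (3 with TMM). MiR-219-1-3p had a log2 ratio of 1.17 (41 counts against 22, and 0.99 with TMM), miR-219-2-3p one of 0.07 (-0.11 with TMM) and miR-219-5p one of -0.48. Each of these lists thus held miRNAs with intervals on both sides of 0.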
